A study of Mus musculus with 8 samples.

Results

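Resting B cell precursors of the mouse periosteum were 478 of 12253 kept cells, 203 from mice on a normal diet (ND) and 275 from mice on a high-fat diet (HFD). UMIs (unique molecular identifiers) each stand for 1 counted RNA molecule. Barcodes with over 500 genes but below 8000 were kept if mitochondrial UMIs stayed under 20%. A kept cell was called a resting precursor when it held at least 2 UMIs of Cd79a, at least 1 UMI of Rag1, Vpreb1, Igll1 or Dntt together, fewer than 2 UMIs of Ighd, fewer than 2 of Mki67 and Top2a together, and under 2% of its UMIs in the neutrophil genes S100a8 and S100a9. The cells were thus chosen by the measured levels of these 10 gate genes, which are given below as a description only.

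The study explored how diabetic nerve damage and diabetic bone disease are related, in mice given a high-fat diet to induce obesity and diabetes. Cells were digested from the left femurs and tibias of male C57BL/6J mice at 16 weeks of age, fed normal or high-fat chow, with 4 mice per diet in the labels and no genetic change named for either group. All cells of a diet are in 1 matrix and no barcode is tied to a mouse, so each diet is 1 sample, no difference between diets could be tested, and all intervals (95%, exact) cover counting error only. The ND library held 48558889 UMIs in 6314 barcodes and the HFD library 49940976 UMIs in 6636 barcodes, 15 barcode sequences were found in both, and 1 of the 478 resting precursors (HFD) carried one of them.

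B cells are made in the bone marrow from precursors that assemble their antibody genes stepwise. In pro-B cells the recombinase Rag1 and Rag2 joins the segments of the heavy chain gene, while Dntt, a polymerase that needs no template, adds bases at the joints. The new heavy chain is first displayed with a surrogate light chain made of Vpreb and Igll1, as the pre-B receptor together with the signaling chains Cd79a and Cd79b. Cells that pass this check divide, leave the cell cycle as small pre-B cells, switch the recombinase on again for the light chain genes, and become immature B cells once a kappa or lambda light chain replaces the surrogate one. Whether the cells described here came from the periosteum itself or from marrow reached by the digestion was not tested.

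The sequences just before the start sites are shown for the gate genes in which a motif was found, since these genes define the cells. The promoters of the 6 marker genes Rag1, Vpreb1, Igll1, Dntt, Vpreb3 and Pax5 and of Cd79a were read from RefSeq (GRCm38.p6, 200 bases before the annotated start, on the strand of the gene). They were searched on both strands for the E-box CAGGTG, the class of site bound by E proteins such as Tcf3, and for CCCNNGGG, the core of the sites bound by Ebf1. The E-box was found in 4 of the 7 promoters, against 13.9% of all 32851 promoters of that length, and CCCNNGGG in 0 of the 7, against 9.91% of all promoters. A match describes the letters and does not show a bound site. The 4 sequences lie at chr2:101649533-101649732 (Rag1, minus strand), chr16:16869256-16869455 (Vpreb1, minus strand), chr16:16863986-16864185 (Igll1, minus strand) and chr7:24897297-24897496 (Cd79a, plus strand), and capitals mark the E-box (in Igll1 its reverse complement), which begins 135, 88, 8 and 154 bases before the start.
Rag1 promoter: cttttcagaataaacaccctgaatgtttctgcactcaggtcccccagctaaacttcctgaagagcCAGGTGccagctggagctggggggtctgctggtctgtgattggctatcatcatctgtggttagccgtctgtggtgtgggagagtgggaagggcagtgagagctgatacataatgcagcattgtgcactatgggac
Vpreb1 promoter: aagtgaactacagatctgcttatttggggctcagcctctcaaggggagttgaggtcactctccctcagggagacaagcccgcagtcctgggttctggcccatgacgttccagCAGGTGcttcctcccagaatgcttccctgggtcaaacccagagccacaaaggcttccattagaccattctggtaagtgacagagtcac
Igll1 promoter: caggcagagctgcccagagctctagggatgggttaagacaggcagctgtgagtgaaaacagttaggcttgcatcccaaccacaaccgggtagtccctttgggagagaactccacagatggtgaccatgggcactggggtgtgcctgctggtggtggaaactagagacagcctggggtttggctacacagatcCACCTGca
Cd79a promoter: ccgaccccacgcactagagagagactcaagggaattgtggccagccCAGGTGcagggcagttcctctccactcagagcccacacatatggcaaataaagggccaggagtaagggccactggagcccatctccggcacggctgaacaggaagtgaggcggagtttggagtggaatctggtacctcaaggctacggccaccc
Tcf3 itself was measured at 257 UPM in ND and 302 in HFD resting precursors, and Ebf1 at 3354 and 3689. UPM is a gene's UMIs per 1000000 UMIs summed over the cells of a group.

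The 4 precursor genes of the gate were found in different numbers of cells. Rag1 was detected in 164 of 203 ND cells (80.8%, 74.7 to 86.0) and 213 of 275 HFD cells (77.5%, 72.1 to 82.3). Vpreb1 was detected in 40.4% and 37.1%, Igll1 in 73 of 203 and 81 of 275 cells, and Dntt in 27.1% and 29.8% of the cells. Most cells held only 1 of the 4 genes, 64.5% in ND and 67.3% in HFD, while 19.2% and 17.1% held all 4, so that Dntt, Igll1 and Vpreb1 tended to be found in the same cells. Among cells with Dntt, 87.3% (ND) and 78.0% (HFD) also held Vpreb1, against 34.8% and 28.6% among cells with Rag1. The summed count of the 4 genes ranged from 1 to 112 UMIs per cell in ND and from 1 to 134 in HFD, with a median of 2 in both.

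The label was checked against Vpreb3 and Pax5, the markers outside the gate. Vpreb3, whose product assists assembly of the pre-B receptor, stood at 3252 UPM (3137 to 3370) in ND and 3505 in HFD resting precursors, against 416 and 485 in Ighd-positive B cells, and was detected in 96.1% and 97.1% of the cells. Pax5, the factor that holds cells in the B lineage, was detected in 64.5% and 64.7% of the cells, at 274 and 298 UPM, against 224 and 240 in Ighd-positive B cells. Rag2 was found at 35.5 and 42.6 UPM, against 0 and 2.16 in Ighd-positive B cells. In Ighd-low B cells without precursor genes Vpreb3 stood at 1360 and 1512, Rag2 at 1.07 and 3.05, and Pax5 at 282 and 323. Vpreb3 and Rag2 were thus highest in the resting precursors among these 3 groups, while Pax5 did not set the cells apart.

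The cells that entered on 1 UMI of the gate held more of some genes of mature B cells. There were 84 such cells in ND and 104 in HFD (41.4% and 37.8% of the resting precursors). Vpreb3 stood at 2484 (ND) and 2393 (HFD) UPM in them, above both Ighd-low and Ighd-positive B cells. Cd74, the chaperone of MHC class II and a gene of more mature B cells, stood at 5537 (ND) and 8058 (HFD) UPM in them, against 972 and 940 in cells with 2 or more gate UMIs. Ms4a1, which encodes CD20 and appears late in the precursor stages, stood at 561 and 818 against 142 and 77.5. Free RNA in the droplets sets a floor for such cells, read here in cells without Cd79a and with at least 2% of their UMIs in S100a8 and S100a9. Of these, 2.47% (ND) and 4.14% (HFD) held a UMI of the 4 precursor genes, at a median depth of 4346 and 4479 UMIs. Rag1 alone was in 0.128% and 0.213% of them, and Vpreb1 in 1.37% and 1.92%. Among Ighd-positive B cells 1.50% and 5.60% held such a UMI, at 3963 and 3735. In HFD these were 91 UMIs in 19 cells, against 108 in 97 of the cells without Cd79a. The Ighd-positive shares are thus not given as a floor, and the source of those UMIs was not tested. How many of the cells with 1 gate UMI hold free RNA was not tested.

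At the other edges of the gate, the cells were few. Cells with exactly 2 Cd79a UMIs numbered 6 in ND and 9 in HFD, with Vpreb3 at 1505 and 1094 UPM, and the 6 and 14 cells left out with 1 Cd79a UMI had Vpreb3 at 151 and 153. The 17 ND and 24 HFD cells with 1 UMI of Mki67 or Top2a had Vpreb3 at 2768 and 3252, and the 5 and 5 cells left out with 2 such UMIs had it at 1565 and 3575. The 27 and 33 cells with 1 Ighd UMI had Vpreb3 at 3245 and 2519, and the 3 and 7 cells left out with 2 had it at 1929 and 2479.

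Resting precursors made up 3.37% of kept cells in ND (203 of 6029, 2.93 to 3.85) and 4.42% in HFD (275 of 6224, 3.92 to 4.96). Of the B lineage cells, defined as kept cells with at least 2 Cd79a UMIs and under 2% S100a8 and S100a9, they were 12.8% in ND (203 of 1587, 11.2 to 14.5) and 17.9% in HFD (275 of 1536, 16.0 to 19.9). The HFD share was the higher one with either denominator, and the counting intervals did not overlap. They do not cover the free RNA floor given above, which was 2.47% in ND and 4.14% in HFD. Its part in the difference was not tested. Cycling precursors, which pass the same gate but hold at least 2 UMIs of Mki67 and Top2a, made up 5.29% (4.24 to 6.51) and 5.66% (4.56 to 6.94) of B lineage cells, with overlapping intervals. Ighd-low B cells with none of the 4 precursor genes made up 57.6% and 50.8%, and Ighd-positive B cells 21.0% and 22.1%. With 1 library per diet, the spread between mice is unknown, and a difference between diets cannot be told apart from one between digestions.

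**Figure D1:**
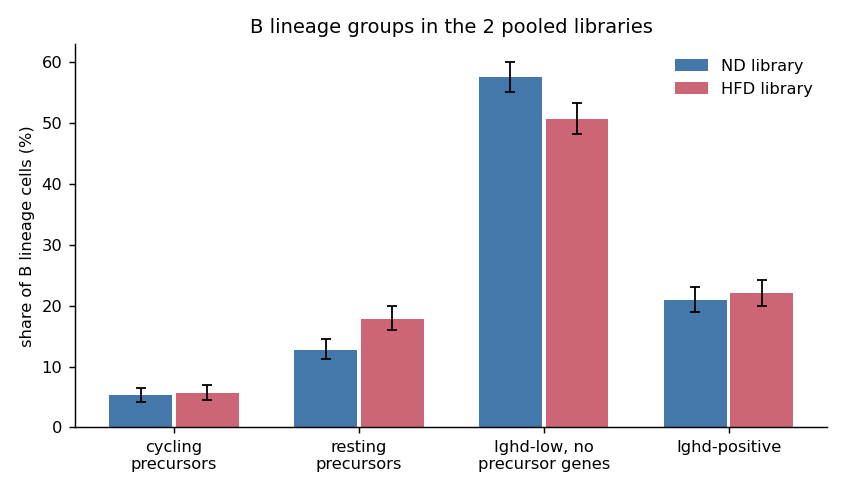
Share of B lineage cells (%) in each of 4 groups, for the ND library (blue bars) and the HFD library (red bars); black bars are exact 95% binomial intervals for counting error only. Resting precursors are 12.8% in ND and 17.9% in HFD, while the cycling precursors have overlapping intervals.

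Resting precursors were small in RNA content beside cycling precursors, with a median of 3739 (ND) and 3590 (HFD) UMIs and 1489 and 1481 genes per cell. Cycling precursors held medians of 16841.5 and 15195 UMIs. Ighd-low B cells without precursor genes held 3754.5 and 3759.5, and Ighd-positive B cells 3963 and 3735, so the size was close to that of the other non-cycling groups. Mitochondrial genes took a median of 2.10% and 2.05% of the UMIs of a resting precursor.

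To see how the cells vary among themselves, they were placed in 4 sets by the gate genes they held. The Dntt set held any cell with Dntt (55 ND and 82 HFD cells), the Igll1 set held cells with Igll1 but no Dntt (25 and 19), the Vpreb1 set held cells with Vpreb1 but neither of those (18 and 31), and the Rag1-only set held the others (105 and 143). The sets share their libraries, and in sparse counts a cell can miss a gene it expresses, so the following levels are a description.

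A few genes of the pro-B stage were highest in the Dntt set. Of the 13 genes of the pro-B list outside the gate, 7 were higher in the Dntt set than in the Rag1-only set in both libraries and 2 were lower, but their summed level was 2597 UPM against 2653 in ND and 2841 against 2039 in HFD. Among genes with at least 20 UMIs over both sets in each library, 5 of 9 pro-B genes were higher and 1 lower, against 37.9% and 32.3% of all 4375 genes. Erg, a transcription factor of early lymphoid cells, stood at 143 (ND) and 168 (HFD) UPM in the Dntt set and at 5.01 and 2.08 in the Rag1-only set, and no UMI was found in the Vpreb1 set, which allows up to 35.5 and 24.6. Lef1, a nuclear partner of Wnt signaling needed by early B cells, stood at 666 and 598 in the Dntt set and at 55.1 and 68.6 in the Rag1-only set. Cdk6, a kinase of the G1 phase, stood at 131 and 170 against 25.05 and 18.7. Kit, the receptor for stem cell factor, was found at 22.3 and 25.4 in the Dntt set and in no cell of the Rag1-only set. In both libraries these 4 genes were highest in the Dntt set, except that Kit stood at 22.6 in the ND Igll1 set. An HFD cell with endothelial genes, described below, held 9 Dntt UMIs and so lay in the Dntt set. Its part in these levels was not tested.

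Of the 13 genes of the small pre-B list outside the gate, 12 were higher in the Rag1-only set than in the Dntt set in both libraries and 1 was lower. All 13 had at least 20 UMIs in each library, and of all 4375 such genes 32.3% were higher in the Rag1-only set and 37.9% lower. Cd2, an adhesion receptor that appears on pre-B cells, stood at 498 (ND) and 684 (HFD) UPM in the Rag1-only set and at 25.5 and 66.5 in the Dntt set. Il2ra, which encodes CD25 and marks small pre-B cells, stood at 105 and 64.4 against 6.37 and 5.87. Ikzf3, the factor Aiolos that silences the surrogate light chain genes, stood at 215 and 229 against 31.9 and 35.2. The lambda constant gene Iglc1 stood at 1616 and 2575 against 147 and 227, and the heavy chain constant gene Ighm at 5343 and 6292 against 2416 and 2339. Irf4, which acts in opening the light chain loci, stood at 331 and 279 against 79.7 and 56.7.

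Genes of later B cells were counted in the Vpreb1 set. Outside the gate, 11 of 16 maturation genes and 9 of 10 MHC class II genes were higher there than in the Rag1-only set in both libraries, and 2 and 1 were lower. With at least 20 UMIs over both sets in each library 8 of 10 and 6 of 7 were higher and 1 of each was lower, against 24% and 35.1% of all 3137 genes. The MHC class II genes were also higher in the Dntt set than in the Rag1-only set for 7 of 10, with none lower in both libraries. With at least 20 UMIs 6 of 8 were higher and 0 lower, against 37.9% and 32.3% of all 4375 genes. The summed level of the MHC class II genes was 11520 (ND) and 10399 (HFD) UPM in the Vpreb1 set, 2441 and 3711 in the Dntt set and 2194 and 3143 in the Rag1-only set. Of the cells without Cd79a named above, 1.37% (ND) and 1.92% (HFD) held a Vpreb1 UMI, and 0.811% and 1.07% an Igll1 UMI. Of Ighd-positive B cells, 0.601% and 2.36% held a Vpreb1 UMI, and 0% and 2.36% an Igll1 UMI. In HFD these were 42 Vpreb1 UMIs in 8 cells and 30 Igll1 UMIs in 8 cells, and their source was not tested. How many of the 18 and 31 cells of the Vpreb1 set, or of the 25 and 19 of the Igll1 set, entered through free RNA was not tested. Ms4a1 stood at 852 (ND) and 1092 (HFD) UPM in the Vpreb1 set, against 235 and 231 in the Rag1-only set and 214 and 151 in the Dntt set. Cd74 stood at 9282 and 8109 in the Vpreb1 set, against 1616 and 2274 in the Rag1-only set. The Igll1 set lay between for Cd74 (4815 and 5375) and Ms4a1 (391 and 530). In that set the small pre-B list outside the gate stood at 85124 (ND) and 12424 (HFD) UPM. The part of single cells in that level was not tested. These sets hold 18 to 31 cells, so 1 cell weighs heavily in them. Il7r, the receptor for the growth factor of B cell precursors, differed less, from 142 in the ND Vpreb1 set to 310 in the HFD Rag1-only set.

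**Figure D2:**
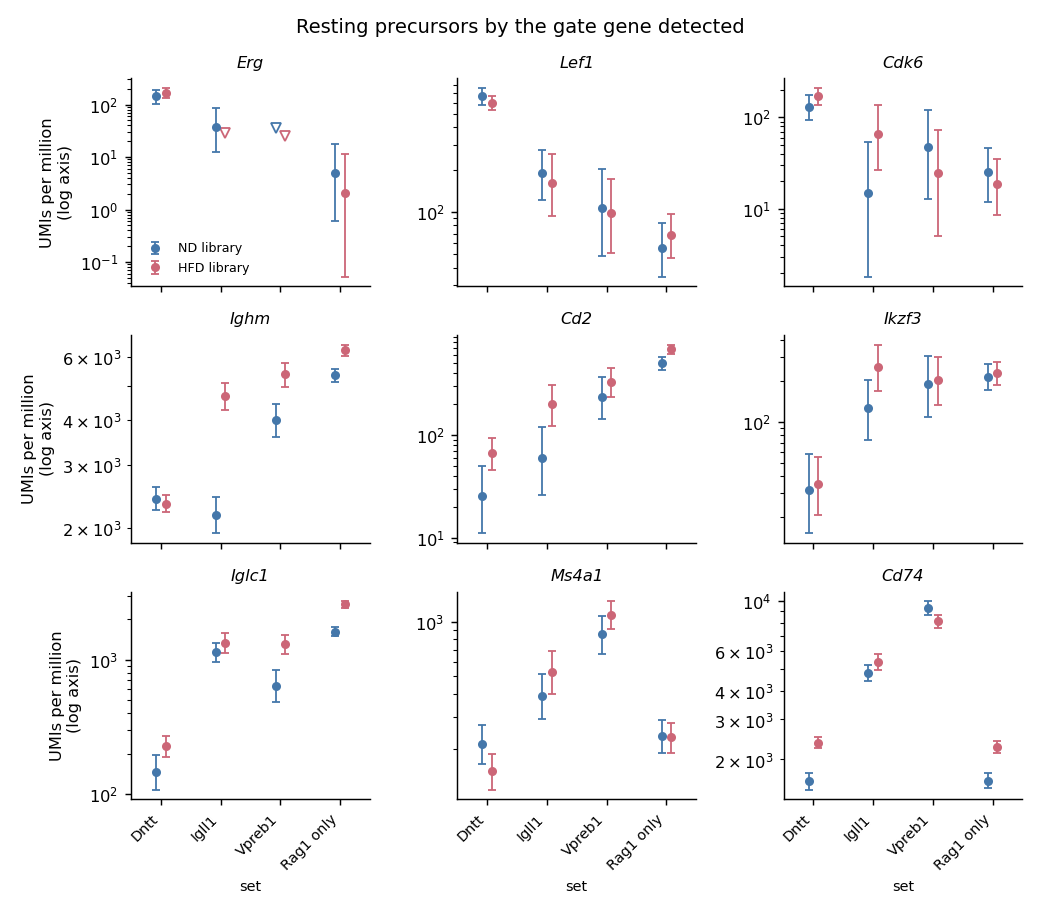
Levels (UPM, log axes that differ between panels) of 9 genes outside the gate in the 4 sets of resting precursors, for the ND library (blue) and the HFD library (red), with exact 95% Poisson intervals; open triangles mark the upper limit of a count of 0. Erg, Lef1 and Cdk6 are highest in the Dntt set, Ighm, Cd2 and Iglc1 in the Rag1-only set, and Ms4a1 and Cd74 in the Vpreb1 set.

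Against Ighd-positive B cells (333 ND and 339 HFD cells, the most mature group here), resting precursors were higher at 2-fold or more in both libraries for 661 of 7304 genes (9.05%) and lower for 227 (3.11%), 12.2% in all. Genes had at least 20 UMIs over both groups in each library, and 0.5 was added to each count. The median gene was 0.27 (ND) and 0.24 (HFD) log2 units higher in resting precursors, so part of that unequal split is shared by all genes. These ratios compare groups within a library, but the gate itself separated the groups, so no test was made.

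A few recombination genes outside the gate stood high in resting precursors. Of the 15 genes of the V(D)J recombination and end joining list, 5 passed 2-fold upward in both libraries (Rag1 and Dntt of the gate, Rag2, Xrcc6 and Lig4) and none passed downward. Xrcc6, the Ku70 subunit that binds broken DNA ends, stood at 384 (ND) and 432 (HFD) UPM in resting precursors against 11.9 and 14.4 in Ighd-positive B cells, log2 ratios of 4.97 and 4.87. Lig4, the ligase that seals the joints, stood at 34.4 and 49.2 against 4.20 and 3.60. Hmgb1, a cofactor of the recombinase, differed by 0.88 and 0.78 log2 units and did not pass.

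Some early receptors and factors also stood higher. Of the 13 genes of the IL-7 and early growth factor receptor list, 2 passed 2-fold upward (Il7r and Socs2) and 1 downward (Il2rg). Il7r stood at 254 (ND) and 268 (HFD) UPM against 7.70 and 8.63, log2 ratios of 4.98 and 4.90. Of the 16 genes of the pro-B list, 12 passed 2-fold upward, of which Dntt, Igll1 and Vpreb1 belong to the gate. Lef1 stood at 285 and 302 against 10.5 and 15.1, and Myb, a factor of proliferating progenitors, at 307 and 397 against 28.0 and 23.0. Of the 20 B lineage transcription factors, 8 passed upward, among them Ebf1 (log2 ratios of 1.04 and 1.15), Tcf3 (1.77 and 1.81) and Sox4 (3.58 and 3.56), and 1, Pou2f2, passed downward. Pax5 differed by 0.29 and 0.31 and did not pass.

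Other genes named by the fixed rule were less tied to the lineage. Cplx2, a complexin of vesicle release, stood at 209 (ND) and 284 (HFD) UPM against 2.80 and 12.9. Gfra1, a receptor subunit for GDNF, stood at 105 and 115 against 2.10 and 3.60. Arntl, the core activator of the circadian clock, stood at 164 and 199 against 8.40 and 9.35, and Atp1b1, a subunit of the sodium pump, at 621 and 836 against 38.5 and 55.4. Vpreb2 (172 and 202 against 0.700 and 1.44) has a near-identical copy in Vpreb1, so its count may be shared with it. Gm37065, a gene model with no known role, stood at 139 and 188 against 6.30 and 6.47.

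Genes of antigen presentation and B cell maturation stood low in resting precursors. All 10 genes of the MHC class II list passed 2-fold downward, and their summed level was 3828 (ND) and 4418 (HFD) UPM against 38571 and 38812. H2-Eb1, a class II beta chain, stood at 171 and 194 against 3236 and 3283. Of the 17 maturation genes, 11 passed downward, with Ighd among them as a gate gene, and none passed upward. Fcer2a, the low-affinity IgE receptor CD23 of mature follicular B cells, stood at 12.9 and 16.4 against 326 and 285. Ms4a1 stood at 306 and 309 against 861 and 879. Of 10 survival regulators, Bcl2l1 and Bad passed upward, and Bcl2, Pmaip1 and Bcl2a1b passed downward. The lowest genes also held Plaur, Rasgef1b, Ms4a4c, Egr3 and Wfdc17, and Wfdc17 is a gene of myeloid cells. The macrophage and dendritic list stood at 861 (ND) and 108 (HFD) UPM in Ighd-positive B cells and at 102 and 211 in resting precursors, with Lyz2 its most abundant gene, and its part in that ratio was not tested.

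**Figure D3:**
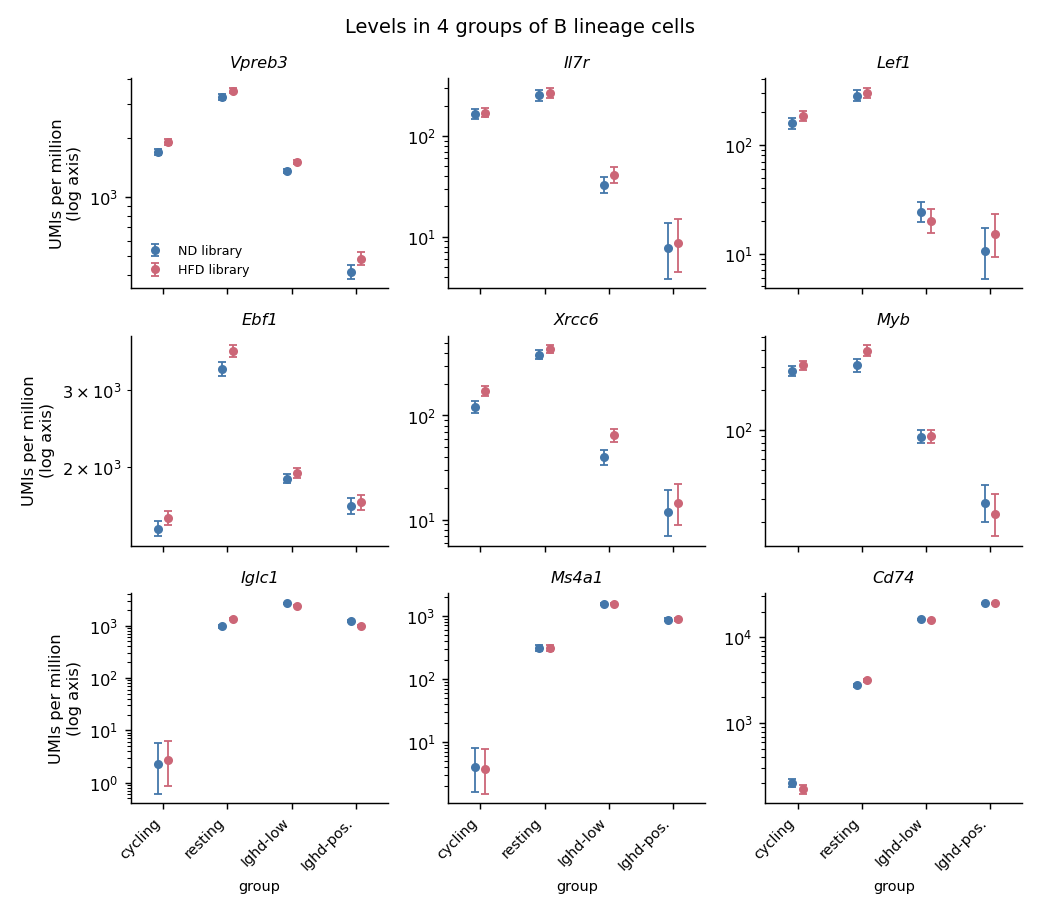
Levels (UPM, log axes that differ between panels) of 9 genes in cycling precursors, resting precursors, Ighd-low B cells without precursor genes and Ighd-positive B cells, for the ND library (blue) and the HFD library (red), with exact 95% Poisson intervals. Vpreb3, Il7r, Lef1, Ebf1 and Xrcc6 are highest in resting precursors in both libraries, Iglc1 and Ms4a1 are under 4 in cycling and over 300 in resting precursors, and Cd74 is ordered from cycling to Ighd-positive cells.

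Against Ighd-low B cells without precursor genes (914 ND and 780 HFD cells), 359 of 8973 genes (4%) were higher in both libraries and 232 (2.59%) lower, 6.59% in all, with the median gene 0.10 (ND) and 0.13 (HFD) log2 units higher in resting precursors. Ebf1 stood at 3354 and 3689 UPM against 1886 and 1944 and did not reach 2-fold. Il7r stood at 254 and 268 against 32.6 and 41.1, and Lef1 at 285 and 302 against 24.3 and 20.1. Of the 10 MHC class II genes 9 passed downward, with Cd74 at 2765 and 3166 against 16245 and 15853, and of the 17 maturation genes 9 passed downward. Adgrg1, Pde2a, Ptgr1 and Phldb3 were also among the 10 highest genes. Among the 10 lowest were Bglap, which encodes osteocalcin, Ogn, Olfml3 and Fabp4, genes of bone, connective tissue and fat. The mesenchymal list stood at 725 (ND) and 3198 (HFD) UPM in those Ighd-low cells and at 1174 and 163 in resting precursors, and its part in these ratios was not tested.

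Against cycling precursors (84 ND and 87 HFD cells), 897 of 7901 genes (11.4%) were higher in both libraries and 750 (9.49%) lower, 20.8% in all, with the median gene 0.13 (ND) and 0.14 (HFD) log2 units higher in resting precursors. Light chain genes marked the difference. Iglc1 stood at 963 and 1357 UPM against 2.26 and 2.70, and Iglc3 at 808 and 882 against 10.2 and 9.18. Of the 14 genes of the small pre-B list, 13 passed upward, among them Cd2 (253 and 348 against 14.1 and 31.3) and Ikzf3 (139 and 148 against 28.2 and 41.0). The gate on Mki67 and Top2a split these groups and selects for lower genes of division, so their counts are a description only. Of the 54 G2M genes 49 passed downward and of the 43 S phase genes 39, with no gene taken out of either list. Cdkn1b, the p27 inhibitor of G1 kinases, stood at 360 and 357 against 127 and 133, and Ccnd3, the cyclin D that drives pre-B cell division, at 201 and 162 against 668 and 585. Ms4a1 stood at 306 and 309 against 3.95 and 3.78, and Ltb, a lymphotoxin chain, at 167 and 164 against 10.7 and 4.86. Of the pro-B list only Sox4 passed (1152 and 859 against 362 and 344). Of the 17 measured genes of the glycolysis list, which also holds targets of mTORC1, 7 passed 2-fold downward. Of 22 nuclear genes of oxidative phosphorylation 5 did, with none past 2-fold upward in either list.

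Some resting precursors carried many UMIs of another cell type, and these cells bear on the comparison of diets. In ND, 1 cell with 27192 UMIs held 2616 of the 2644 Igha UMIs, 932 of the 940 Jchain UMIs and 10178 of the 14983 Igkc UMIs of all 203 cells, with 1 gate UMI. Jchain and Igha are genes of antibody-secreting plasma cells. In ND, 3 cells held 830, 178 and 30 UMIs of the 9 mesenchymal genes out of 1092 in all, in droplets of 24058, 15287 and 6806 UMIs, while no HFD cell held more than 18 of 199. In HFD, 1 cell held 119 of the 257 macrophage and dendritic UMIs, and 3 cells in each library held at least 10 UMIs of the T and NK list. The HFD cell with the most UMIs (22921) held 116 of the 148 Igfbp7 UMIs, 27 Ptprb, 16 Cdh5 and 19 Pecam1 UMIs of endothelial type beside 74 Vpreb1 and 44 Igll1 UMIs. Because of such cells, the main ratios between diets are given with all cells and again without 13 of them (7 ND and 6 HFD). Cells were taken out when they held at least 20 UMIs of Jchain or of the mesenchymal, macrophage or erythroid list or at least 10 of the T and NK list. These limits were chosen after seeing the data, and the HFD cell with endothelial genes did not meet them. The comparisons above, between the sets and between the B lineage groups, were made with all cells only. Scrublet, a doublet caller, marked 0 ND and 1 HFD resting precursor, but it marked only 0.149% and 0.370% of all kept cells and cannot be taken to have worked here.

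Between diets, 184 of 7697 genes (2.39%) were at least 2-fold higher in HFD and 282 (3.66%) at least 2-fold lower, 6.05% in all, and the median gene was 0.060 log2 units higher in HFD. Of the 3077 genes with at least 100 UMIs, 10 were higher and 61 lower. In 29 of those 61, over 50% of the ND UMIs lay in 1 cell. Without the 13 cells, 25 of the 61 stayed 2-fold lower and 23 turned higher, and 7 of the 10 stayed 2-fold higher. Among genes with at least 100 UMIs, 31 were 2-fold lower and 21 were 2-fold higher without the 13. Over all genes the excess of lower ones was lost without the 13, with 200 higher and 177 lower. It returned (160 and 187) when the HFD cell with endothelial genes was left out as well, also chosen after seeing the data.

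The 10 lowest genes were of this kind. Igha (2644 ND and 31 HFD UMIs), Jchain (940 and 12), Sfrp4 (101 and 1), Ecm1 (159 and 3), Clec3b (138 and 4), Cxcl1 (107 and 7), Myoc (133 and 9), Igfbp6 (301 and 24), Dcn (700 and 57) and Serping1 (139 and 12) all had over 50% of their ND UMIs in 1 cell. Dcn, the matrix proteoglycan decorin, went from a log2 ratio of -3.998 (-4.43 to -3.62) with all cells to 0.77 (0.047 to 1.57) without the 13. Igkc, the kappa light chain, stood at 16103 (ND) and 4632 (HFD) UPM with all cells and at 5457 and 4661 without them.

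Among the 10 highest genes, the UMIs of some also lay in few cells. Lyz2, the lysozyme of myeloid cells, had 109 of its 204 HFD UMIs in 1 cell, and its log2 ratio was 1.19 (0.79 to 1.61) with all cells and 0.012 without the 13. Ccl4 had 29 of 82, Egfl7 28 of 90, Ramp1 21 of 109 and Tpm1 20 of 81 UMIs in 1 cell. Gm47283, a gene model, was spread over more cells, with 122 ND UMIs in 77 cells and 452 HFD UMIs in 193 cells, 131 and 370 UPM, and a log2 ratio of 1.49 (1.21 to 1.80). Kcmf1 (1.13), Thap11 (1.19) and Ube2w (1.03) had at most 3 UMIs in any cell. Hba-a1, a hemoglobin gene with near-identical copies, stood at 30.1 and 74.6 UPM, and the erythroid list at 277 and 416. Without the 13 cells Hba-a1 stood at 32.9 and 60.8 (0.87) and Egfl7 at 40.2 and 76.2 (0.91), neither past 2-fold, and the erythroid list had a ratio of 0.29.

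**Figure D4:**
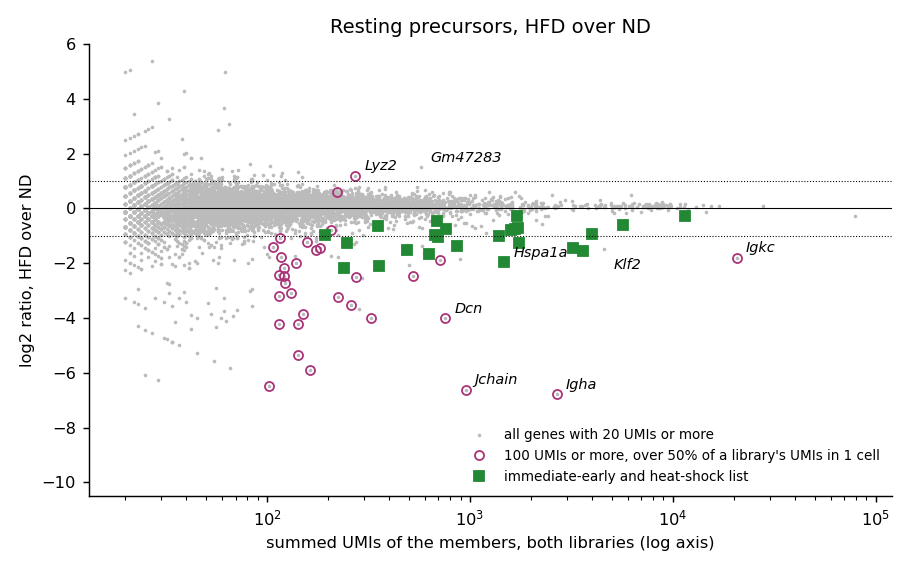
Log2 ratio of HFD over ND in resting precursors against the summed UMIs of each gene (log axis). Grey points are the 7697 genes, open circles those with at least 100 UMIs and over 50% of a library's UMIs in 1 cell, and green squares the immediate-early and heat-shock list; dotted lines mark 2-fold. Among genes with at least 100 UMIs, the lowest are open circles, and all green squares lie below 0.

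Among the groups lower in HFD with or without those cells was that of immediate-early and heat-shock genes, which cells switch on within minutes of stress, dissociation or receptor signals. Of the 25 listed, 24 had at least 20 UMIs, all 24 were lower in HFD against 43.3% of all genes, and 11 passed 2-fold against 3.66%. Their median log2 ratio was -0.99 and their summed level 28188 (ND) and 15806 (HFD) UPM, a log2 ratio of -0.83 (-0.86 to -0.81). Without the 13 cells, 23 of 24 were lower, 11 passed 2-fold, and the summed ratio was -0.87 (-0.90 to -0.84).

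Several members kept a difference of that size without those cells. Hspa1a, an inducible HSP70 chaperone, stood at 1191 (ND) and 304 (HFD) UPM, a log2 ratio of -1.97 (-2.14 to -1.80), and at 1340 and 295 without the 13. Hsp90aa1, an inducible HSP90, stood at 2355 and 855 (-1.46, and -1.61 without the 13). Dnajb1, the HSP40 partner of HSP70, stood at 360 and 127 (-1.50, and -1.68). Jun, a subunit of AP-1, stood at 2680 and 901 (-1.57, and -1.62). Klf6, a Krüppel-like factor, stood at 610.5 and 239 (-1.35, and -1.34). Egr1 (-2.12, and -1.08), Fos (-1.65, and -0.97) and Atf3 (-2.17, and -0.93) moved closer to 0 without the 13, Nr4a1 went from -0.65 to -0.10, and Fosb from -1.28 to 0.45, the 1 gene of the list that was then higher in HFD. The 3 ND cells with mesenchymal genes held 47, 77 and 25 of the 273 Egr1 UMIs, 51, 45 and 11 of the 186 Atf3 UMIs and 53, 117 and 25 of the 446 Fos UMIs. The HFD cell with endothelial genes, not among the 13, held 51 of the 186 HFD Fos UMIs and 9 of the 82 HFD Egr1 UMIs. Without it as well as the 13, Fos stood at -1.42, Egr1 at -1.22 and Atf3 at -0.93, and the summed ratio of the list was -0.87, with 12 genes past 2-fold. With all cells, Jund, Nfkbia and Ier2 were the least different, at -0.28, -0.27 and -0.45.

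The summed levels of the lists of G1 and quiescence regulators and of B cell maturation were also lower in HFD (-0.57 and -0.67), but mostly through 1 shared gene, Klf2. Without Klf2, left out after its values were seen, the ratios were -0.17 and -0.028, and with it the median genes stood at -0.015 and -0.030. Klf2 is a factor of quiescent and migrating lymphocytes and stood at 3363 (ND) and 1196 (HFD) UPM (-1.49, and -1.63 without the 13). Of the 16 measured G1 genes 10 were lower, and Klf2, Cdkn1a, the p21 inhibitor of cell cycle kinases (175 and 50.8 UPM, and 110 and 50.5 without the 13), and Myc (35.5 and 14.8 UPM) passed 2-fold. Of the 16 maturation genes 9 were lower, and 1, Klf2, passed. Beside the counts of both lists, 43.3% of all genes were lower in HFD and 3.66% were at least 2-fold lower. Gadd45g, a stress gene, had 656 ND and 238 HFD UMIs (-1.85, and -1.98 without the 13), Rhob 588 and 296 (-1.38, and -1.47), and Hspb1 239 and 54 (-2.53, and -2.56), all 3 chosen after their values were seen. Pmaip1, which encodes the death regulator Noxa, stood at 66.6 and 18.0 (-1.86, and -1.89 without the 13). Of the 31 genes with at least 100 UMIs that were 2-fold lower without the 13 cells, 11 belonged to the immediate-early and heat-shock list.

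Most genes of the list were also lower in HFD in the other B lineage groups, which come from the same 2 libraries. The summed log2 ratio of the list was -0.49 (-0.51 to -0.46) in cycling precursors, -0.58 (-0.60 to -0.57) in Ighd-low B cells without precursor genes and -0.53 (-0.55 to -0.51) in Ighd-positive B cells, with 23 of 24, 24 of 25 and 22 of 25 genes lower, against 43.8%, 49.6% and 41.7% of all genes. The exceptions were Hspd1 in cycling precursors (0.0094), Egr3 in Ighd-low cells (0.62), and Egr3 (0.37), Fosb (0.16) and Nr4a1 (0.038) in Ighd-positive cells. The summed level was thus most negative in resting precursors, but the median gene was at -0.99 in both resting and cycling precursors, with 11 and 12 genes past 2-fold. In Ighd-low and Ighd-positive cells 3 genes passed in each, and over all genes 3.33% (cycling), 2.49% (Ighd-low) and 2.07% (Ighd-positive) were 2-fold lower. Hspa1a was at -3.20 in cycling precursors, -1.49 in Ighd-low cells and -1.33 in Ighd-positive cells. No cells were taken out of these 3 groups, and genes of other cell types differed there between diets. The mesenchymal list had summed ratios of -3.61 in cycling precursors, 2.14 in Ighd-low cells and 3.77 in Ighd-positive cells, the erythroid list -4.19 in cycling precursors, the plasma list 2.71 in Ighd-low cells, and the macrophage and dendritic list -2.99 in Ighd-positive cells. Their part in the ratios of these groups was not tested. With 1 matrix per diet, a change with diet and one with handling cannot be told apart.

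**Figure D5:**
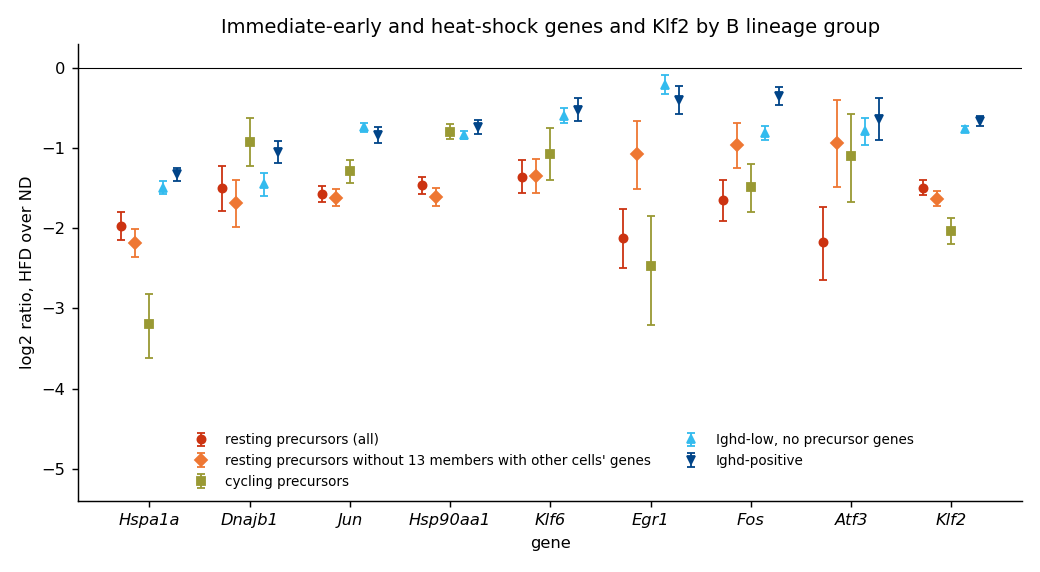
Log2 ratio of HFD over ND for 8 genes of the immediate-early and heat-shock list and Klf2, in all resting precursors, in resting precursors without the 13 cells that held genes of another cell type, and in 3 other B lineage groups, with exact 95% intervals for counting error. All 45 values lie below 0, and Egr1, Fos and Atf3 in resting precursors move closer to 0 without the 13 cells.

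No gene of the precursor lists that follow passed 2-fold between diets. Over all genes 43.3% were lower in HFD, which is the share to set beside the counts of higher and lower genes below. All 7 genes of the pre-B receptor list were higher in HFD, none past 2-fold, with a median log2 ratio of 0.22 and a summed level of 14096 (ND) and 16075 (HFD) UPM, a ratio of 0.19 (0.16 to 0.22). Without the 13 cells, 5 of 7 were higher, with a summed ratio of 0.095 (0.062 to 0.13). Both this list and the recombination list hold genes of the gate, whose levels the choice of cells constrained in both diets. Leaving those out, 4 of 4 pre-B receptor genes and 8 of 11 recombination genes were higher with all cells, with summed ratios of 0.20 and 0.21. These ratios were not repeated without the 13. Vpreb2, whose count may be shared with Vpreb1 of the gate, was not left out. Of the gate genes, Dntt stood at 400 (360 to 443) and 562 UPM, Vpreb1 at 1199 and 1484, Igll1 at 903 and 946, and Rag1 at 366 and 393. Of 13 recombination genes with at least 20 UMIs, 10 were higher and 3 lower, none past 2-fold, with a summed ratio of 0.23 (0.17 to 0.30), and 0.12 (0.058 to 0.19) without the 13. Of 15 genes of pre-B receptor signaling, 10 were higher and 5 lower (8 and 7 without the 13), with Syk at 0.46, Lyn at 0.45 and the adaptor Blnk at 0.16. Of 20 B lineage transcription factors, 15 were higher and 5 lower, but without the 13 cells 11 were higher and 9 lower and the summed ratio went from 0.076 to -0.017. Their largest differences were Bach2 (211 and 334 UPM, 0.66) and Sox4 (1152 and 859, -0.42). Il7r stood at 254 and 268, a log2 ratio of 0.079.

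Lists of other processes were mixed. Over all genes 43.3% were lower in HFD, 2.39% were at least 2-fold higher and 3.66% at least 2-fold lower. Of the 43 S phase genes, 30 had at least 20 UMIs, 28 were higher in HFD and 2 passed 2-fold, with a summed ratio of 0.33 (0.21 to 0.46). Without the 13 cells 23 of 30 were higher, with a ratio of 0.24, and after thinning each cell to 1000 UMIs the ratio was -0.30. The S phase UMIs of a cell had a median of 2 in both libraries, and the highest cell held 91 in ND and 129 in HFD, against 821 and 1357 in all. Of the MHC class II list 8 of 9 genes were higher, with a summed ratio of 0.21 (0.15 to 0.27), which was 0.12 without the 13 cells and turned to -0.080 with Ighd at 0 and to -0.059 with 1 Cd79a UMI allowed. Of 10 survival regulators 9 were lower and 2 passed 2-fold, Pmaip1 and Bcl2a1b. Bcl2a1b had 31 ND and 3 HFD UMIs, but 4 and 3 without the 13 cells, and then did not pass (-0.87, -3.69 to 1.64). Of 14 interferon-stimulated genes 7 were higher and 7 lower, with Ifi27l2a at 0.60 and Ifit3 at -3.43 (20 and 2 UMIs). Of them 1 passed 2-fold higher and 4 lower (1 and 3 without the 13), against 2.39% and 3.66% of all genes. The homing receptors Cxcr4 (355 and 398 UPM, 0.16) and S1pr1 (-0.17), which hold cells in marrow and let them out of it, showed little difference. Nuclear genes of oxidative phosphorylation had a summed ratio of 0.053, and the list of glycolysis and mTORC1 targets one of -0.015 (-0.11 to 0.080). The neutrophil list stood at 2174 (ND) and 2061 (HFD) UPM, with S100a9 its most abundant gene, and its part in these ratios was not tested.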

How the data were processed

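Single-cell RNA was counted in 2 matrices, 1 per diet, each pooling the 4 labelled mice. The authors deposited counts of UMIs per gene and barcode, made with Cell Ranger 6.0.1 on mm10 per the submitters' processing notes. Cells were gated and UMIs summed in Python 3.11.15 with scipy 1.17.1, and the code was tested on simulated data. Binomial (Clopper-Pearson) and Poisson intervals are exact. Log2 ratios had 0.5 added to each count, genes needed 20 UMIs, and a count of 0 allows 3 counts. With 1 library per diet no test was made, and no count model was used. Genes of the lists could be named at any level, so their naming follows no ranking. Other genes were named as the 10 highest and 10 lowest past 2-fold among those with at least 100 UMIs outside the gate. Exceptions were genes used to describe single cells and those said above to be chosen after their values were seen. The members and gene lists were chosen with earlier results of these data known. Scrublet was run in scanpy 1.11.5. UMIs of near-identical genes (Vpreb1 and Vpreb2, Iglc2 and Iglc3, hemoglobins) are uncertain. Alternatives changed the gate, depth, filter, scaling and weighting.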

Additional observations from a re-analysis of the deposited data

How the results depend on the processing

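The share of resting precursors was higher in HFD in 13 of 13 alternative gates or sets of cells, by 1.29 to 1.39 times of kept cells and 1.37 to 1.48 times of B lineage cells. Shares themselves moved, given here as ND and HFD, first of kept cells and then of B lineage cells. They were 1.97% and 2.75%, and 7.498% and 11.1%, with at least 2 gate UMIs. They were 1.46% and 1.88%, and 5.55% and 7.62%, with at least 3. With Ighd at 0 they were 2.92% and 3.89%, and 11.1% and 15.8%. After thinning every cell to 1000 UMIs they were 1.82% and 2.41%, and 8.61% and 11.9%, leaving out 55 ND and 51 HFD kept cells. In cells with more than 1000 genes the HFD share of kept cells was 4.98%.

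Counts of genes past 2-fold between diets (184 higher, 282 lower) became 73 and 83 after thinning, of which 1 and 18 were shared, 1999 and 2433 with at least 1 UMI, and 10 and 61 with at least 100. The next 4 alternatives were chosen after seeing the data: 118 were higher and 238 lower when the interval also had to exclude 0, 200 were higher and 177 lower without the 13 cells, 160 and 187 when the HFD cell with endothelial genes was also left out, and 177 and 174 without the highest cell for each gene. The excess of lower genes was thus lost without the 13 cells or the highest cells, and not in the other 2 settings. It was also lost with S100a8 and S100a9 below 0.5% of UMIs, where 219 genes were higher and 212 lower. Against Ighd-positive B cells (661 higher, 227 lower) the counts were 115 and 51 after thinning, 1800 and 492 with at least 1 UMI, and 209 and 119 with at least 100, and 424 were higher after centring on the median gene. Of the lists, 12 higher and 8 lower became 5 and 4 after thinning.

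The immediate-early and heat-shock list stayed lower in HFD in 20 of 20 alternatives (-1.02 to -0.79), with 22 to 25 genes lower. The causes of changes in sign were not tested. Given next are log2 ratios of HFD over ND that changed sign, for genes and lists whose interval with all cells excluded 0. After thinning they were Clec3b, Igfbp6 and Myoc 1.13 (each with 0 ND UMIs, so that no direction can be read), Dcn 0.20, Egfl7 -0.16, Ramp1 -0.74, and the lists of G2M -0.18, S phase -0.30, oxidative phosphorylation -0.13, mesenchymal 0.19 and pro-B -0.014. Without the 13 cells they were Clec3b 1.08, Dcn 0.77, Ecm1 2.30 (with 0 ND UMIs), Igfbp6 0.55, Jchain 0.048, Myoc 0.93, Serping1 0.97, and the lists of transcription factors -0.017, immunoglobulin constant regions 0.013, mesenchymal 1.37 and pro-B -0.0091. With the HFD cell with endothelial genes also left out, they were Clec3b 1.10, Dcn 0.80, Ecm1 1.84 (0 ND UMIs), Igfbp6 0.46, Jchain 0.076, Myoc 0.96, Serping1 0.99, and the lists of transcription factors -0.0074, constant regions 0.038, mesenchymal 1.26 and pro-B -0.029. With each cell weighted alike they were Egfl7 -0.21, transcription factors -0.022 and pro-B -0.18. With at least 2 gate UMIs they were Jchain 0.17 and constant regions 0.11, and with at least 3, constant regions 0.21 and small pre-B 0.035. With Mki67 and Top2a at 0 they were Jchain 0.18 and constant regions 0.063, and without the highest cell Jchain 0.045 and constant regions 0.065. With 1 Cd79a UMI allowed they were Lyz2 -1.35, MHC class II -0.059 and macrophage -1.002, with Ighd at 0 MHC class II -0.080, and after centring oxidative phosphorylation -0.0067. Of the other values 701 were counted as the same and 188 as moved. Crossings of 0 were not counted as changes in sign for lists whose interval with all cells held 0. Over the alternatives, the neutrophil list ranged from -0.48 to 0.56, glycolysis from -0.14 to 0.14 and marrow retention from -0.21 to 0.029. The interferon list ranged from -0.012 to 0.54, and the T and NK list from -0.083 to 1.60.

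No paired analysis was possible because each diet is 1 pooled matrix, and no replicate could be left out for the same reason. Depth limits genes under about 20 UMIs and the sets of 18 to 31 cells.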
